A study of Homo sapiens with 6 samples.

Results

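The transcripts described here come from 9 genes grouped with the mitotic apparatus. They are the kinesins CENPE, KIF11, KIF14 and KIF23, the centromere genes CENPA and CENPF, the spindle genes ASPM and HMMR, and DEPDC1. DEPDC1, a DEP domain gene expressed in dividing cells, was grouped with the spindle genes. The 9 genes were chosen by gene symbol, with earlier results of the same arrays known in which genes of this kind had low ratios. Their loci in GRCh38.p14 are chr4:103105811-103198343 (CENPE), chr10:92593130-92655395 (KIF11), chr1:200551497-200620751 (KIF14), chr15:69414349-69448427 (KIF23), chr2:26786056-26794589 (CENPA), chr1:214603195-214664571 (CENPF), chr1:197084127-197146669 (ASPM), chr5:163460632-163491941 (HMMR) and chr1:68474152-68497082 (DEPDC1). They are 9 of 4604 genes with a single symbol on the platform and hold 39 of its 15246 probes. Since low ratios chose them, their siRNA means and the difference between the siRNAs are given as a description, with no test.

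The arrays carried 2 colours. Cells of the Jurkat line, which derives from a human T-cell leukaemia, received RPS3 siRNA, p65 siRNA or nonspecific control siRNA. They were then treated for 1, 3 or 6 h with anti-CD3/CD28 (1 ug), antibodies that engage the T-cell receptor and its co-receptor. Each of the 6 arrays set Cy5-labelled RNA of RPS3 siRNA cells (3 arrays) or p65 siRNA cells (3 arrays) against Cy3-labelled RNA of control siRNA cells stimulated for the same time, so each siRNA had 1 array per time. RPS3 is a protein of the small ribosomal subunit and p65, encoded by RELA, a subunit of the transcription factor NF-kB. A log2 ratio is siRNA over control siRNA, the likely but unstated direction, in which the RPS3 probe lies below 0 on all 3 RPS3 siRNA arrays, and 0 is the median probe of an array. SDs are over the 3 arrays of a siRNA, which differ in time and are not said to come from separate cultures. Precision is limited by having 3 arrays per siRNA.

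In mitosis the kinetochore assembles on centromeric chromatin and captures spindle microtubules, and motor proteins of the kinesin family align chromosomes, push spindle poles apart and complete cell division. Most of these genes are transcribed in late S, G2 and M phase and are low in resting cells. Their products are therefore known as markers of proliferating cells, and T-cell leukaemia lines cycle without stimulation. In a bulk RNA sample, fewer cells in G2 and M phase and less RNA per such cell cannot be told apart.

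Promoters of genes with this timing often hold the cell cycle genes homology region (CHR), which is bound by the MuvB complexes, and a box bound by NF-Y. The CHR was searched as TTTGAA and the NF-Y box as CCAAT, on both strands, from 250 bases before to 50 bases after the RefSeq gene start (build GRCh38.p14). All 9 genes matched a RefSeq promoter. TTTGAA was found in 8 of 9, against 15.4% of 27305 RefSeq promoters and 11.5% of the 3222 of genes tested on the arrays. CCAAT was found in 8 of 9, against 35.7% and 37.4%. The same 8 genes held both, against 6.08% and 5.09%, and CENPE held neither. An NF-kB-like pattern, GGG followed by any 5 bases and CC, was found in 4 of 9 (CENPE, CENPA, KIF14 and ASPM), against 58.0% of RefSeq promoters and 71.7% of those of tested genes. These are matches of letters, not measured sites.

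The 150 bases before the start are shown for the 6 genes whose TTTGAA lies in them and for CENPE, which has none; capitals mark TTTGAA or its complement TTCAAA, and CCAAT or its complement ATTGG. They are the windows chr10:92592980-92593129 on the plus strand for KIF11, chr15:69414199-69414348 on the plus strand for KIF23, chr2:26785906-26786055 on the plus strand for CENPA, chr1:197146670-197146819 on the minus strand for ASPM, chr5:163460482-163460631 on the plus strand for HMMR, chr1:68497083-68497232 on the minus strand for DEPDC1 and chr4:103198344-103198493 on the minus strand for CENPE.
KIF11: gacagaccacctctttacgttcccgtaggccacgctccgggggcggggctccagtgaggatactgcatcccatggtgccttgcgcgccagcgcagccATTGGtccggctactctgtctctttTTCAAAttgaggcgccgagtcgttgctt
KIF23: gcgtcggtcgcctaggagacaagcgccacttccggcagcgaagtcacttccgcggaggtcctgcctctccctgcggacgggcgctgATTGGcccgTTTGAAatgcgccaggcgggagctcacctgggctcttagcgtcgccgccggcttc
CENPA: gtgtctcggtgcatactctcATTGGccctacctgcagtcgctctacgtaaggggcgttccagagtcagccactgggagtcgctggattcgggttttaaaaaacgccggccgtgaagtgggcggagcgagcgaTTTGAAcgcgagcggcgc
ASPM: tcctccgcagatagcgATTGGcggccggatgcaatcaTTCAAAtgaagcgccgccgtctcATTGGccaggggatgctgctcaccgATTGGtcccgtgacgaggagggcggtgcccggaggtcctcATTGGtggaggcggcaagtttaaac
HMMR: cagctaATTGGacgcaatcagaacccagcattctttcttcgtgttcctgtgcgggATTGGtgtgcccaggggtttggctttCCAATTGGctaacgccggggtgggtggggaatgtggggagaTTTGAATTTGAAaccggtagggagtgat
DEPDC1: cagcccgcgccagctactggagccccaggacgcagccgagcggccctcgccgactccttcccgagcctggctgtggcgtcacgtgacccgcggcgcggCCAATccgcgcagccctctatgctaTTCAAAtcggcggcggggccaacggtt
CENPE: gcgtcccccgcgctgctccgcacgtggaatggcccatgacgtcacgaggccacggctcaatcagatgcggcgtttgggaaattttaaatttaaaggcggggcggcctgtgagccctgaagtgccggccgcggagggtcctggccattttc

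In KIF11 and DEPDC1 a single CCAAT and a single TTTGAA lie close together, at -53 and -28 in KIF11 and at -52 and -27 in DEPDC1, counted to the first base of the match with -1 just before the start. KIF23 has them at -64 and -55. ASPM has 4 CCAAT matches around 1 TTTGAA at -113, and HMMR has 5 CCAAT matches, of which those at -69 and -66 overlap, and TTTGAA at -28 and -22. CENPA has TTTGAA at -18 and CCAAT at -205 and -130. In the other two genes with a match TTTGAA lies after the start, at 2 in KIF14 and 41 in CENPF.

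**Figure D1:**
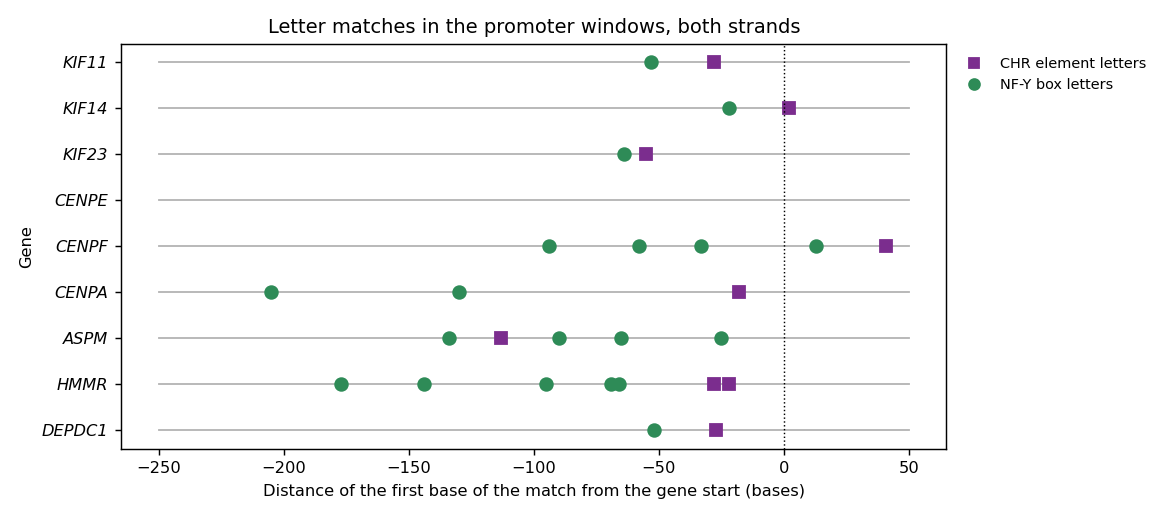
Positions of the CHR letters (squares) and NF-Y box letters (circles) in the promoter windows of the 9 genes, on either strand. The x axis is the distance in bases of the first base of a match from the gene start, and lines span the window searched; 8 genes have both kinds of match and CENPE has neither.

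All 9 genes had values on all 6 arrays. On the RPS3 siRNA arrays all 9 lay below 0 at 1, 3 and 6 h, against 15.5% of all 7267 tested features, and their means ran from -0.86 for DEPDC1 to -0.43 for KIF23, with a median of -0.60. On the p65 siRNA arrays all 9 means were also below 0, from -0.59 for CENPE to -0.03 for CENPA (median -0.23). Single arrays decided part of this: the p65 siRNA median was -0.11 without the 3 h array and -0.37 without the 1 h array, CENPA averaged 0.09 without the 6 h array and HMMR 0.03 without the 3 h array. On the p65 siRNA arrays 4 of 9 genes lay below 0 at all 3 times, against 9.67% of features. Both shares come from contrasts that chose the genes and are not read further. As the background over all 7267 features, limma called 0 lower (0%) at an adjusted p under 0.05 with RPS3 siRNA, 0 (0%) with p65 siRNA and 0 (0%) in the difference of the siRNAs. RPS3 itself, at -2.16 ± 0.62 with its own siRNA, was among the features not called, so 0 calls do not show an absence of change. The lowest adjusted p by limma with RPS3 siRNA was 0.088. An unadjusted p under 0.05 was given to 636, 360 and 185 features. These fits are not used as a test of the 9 genes.

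CENPE, a kinesin which tethers kinetochores to microtubule ends and carries chromosomes to the equator, read -1.05, -0.86 and -0.61 at 1, 3 and 6 h on the RPS3 siRNA arrays, against -0.57, -0.86 and -0.36 on the p65 siRNA arrays. Its means were -0.84 ± 0.22 with RPS3 siRNA (1.79-fold lower than control) and -0.59 ± 0.25 with p65 siRNA (1.51-fold lower). CENPE was low on all 6 arrays, the siRNAs were level at 3 h, and the groups overlapped.

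KIF11 (Eg5), the motor that pushes spindle poles apart, was represented by a single probe. It read -0.70, -0.29 and -0.80 on the RPS3 siRNA arrays, against 0.19, -0.24 and -0.42 with p65 siRNA. The means were -0.60 ± 0.27 with RPS3 siRNA and -0.16 ± 0.31 with p65 siRNA. The p65 siRNA array at 1 h was the one array above 0, and the groups overlapped because the RPS3 siRNA array at 3 h was higher than the p65 siRNA array at 6 h.

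KIF14, a kinesin of the midbody needed for cytokinesis, read -0.80, -0.51 and -0.95 on the RPS3 siRNA arrays, against 0.05, -0.27 and -0.47 on the p65 siRNA arrays. Its mean was -0.76 ± 0.22 (1.69-fold lower than control) with RPS3 siRNA and -0.23 ± 0.26 with p65 siRNA. Every RPS3 siRNA value lay below every p65 siRNA value. KIF23 (MKLP1), a motor of the central spindle complex centralspindlin, read -0.40, -0.24 and -0.65 with RPS3 siRNA, against 0.19, -0.28 and -0.35 with p65 siRNA. It had the smallest RPS3 siRNA mean of the 9 genes, -0.43 ± 0.21, and a p65 siRNA mean of -0.15 ± 0.29, and its groups overlapped.

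Of the centromere genes, CENPA encodes the histone H3 variant that marks centromeric nucleosomes. It read -0.52, -0.30 and -0.69 on the RPS3 siRNA arrays, against 0.06, 0.12 and -0.29 on the p65 siRNA arrays. Its mean was -0.50 ± 0.19 with RPS3 siRNA and -0.03 ± 0.22 with p65 siRNA. CENPA was the one gene above 0 on the p65 siRNA array at 3 h. Its groups did not overlap, but the RPS3 siRNA array at 3 h and the p65 siRNA array at 6 h were nearly level.

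CENPF, a large protein of the outer kinetochore that accumulates in G2, read -0.77, -0.65 and -0.36 on the RPS3 siRNA arrays, against -0.10, -0.52 and -0.07 on the p65 siRNA arrays. The mean was -0.59 ± 0.21 with RPS3 siRNA and -0.23 ± 0.25 with p65 siRNA. The groups overlapped, since the RPS3 siRNA array at 6 h was above the p65 siRNA array at 3 h.

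Among the spindle genes, ASPM encodes a spindle pole protein that holds microtubule minus ends. It read -0.91, -0.80 and -0.44 with RPS3 siRNA, against -0.50, -0.83 and -0.27 with p65 siRNA. Its means were -0.71 ± 0.24 with RPS3 siRNA and -0.53 ± 0.28 with p65 siRNA, the smallest gap of the 9 genes. Like CENPE, ASPM was below 0 on all 6 arrays.

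HMMR (RHAMM), a hyaluronan receptor that also binds spindle microtubules, read -0.67, -0.31 and -0.45 on the RPS3 siRNA arrays, against 0.13, -0.67 and -0.06 on the p65 siRNA arrays. Its means were -0.48 ± 0.18 with RPS3 siRNA and -0.20 ± 0.42 with p65 siRNA. The p65 siRNA arrays spread the most of any of the 9 genes, and HMMR was the gene that was lower with p65 siRNA than with RPS3 siRNA at 3 h by the largest amount. DEPDC1, which encodes a DEP domain protein expressed in dividing cells, read -0.97, -0.67 and -0.94 with RPS3 siRNA, against -0.14, -0.74 and -0.38 with p65 siRNA. It had the lowest RPS3 siRNA mean, -0.86 ± 0.17 (1.81-fold lower than control), and a p65 siRNA mean of -0.42 ± 0.30. It was below 0 on all 6 arrays, and its groups overlapped at 3 h.

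**Figure D2:**
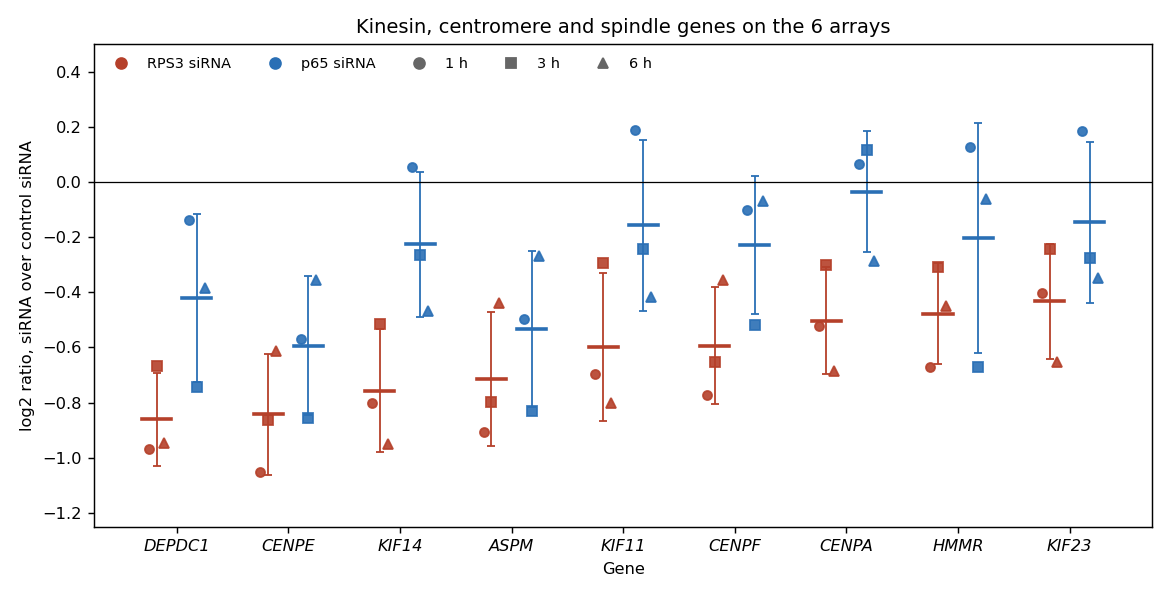
log2 ratios (siRNA over control siRNA, y axis) of the 9 genes, ordered along the x axis by their RPS3 siRNA mean. Symbols are single arrays at 1, 3 and 6 h, horizontal bars the mean and error bars the SD of 3 arrays; the RPS3 siRNA values all lie below 0, and only KIF14 and CENPA have no overlap between the siRNAs.

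Groups that did not overlap, with RPS3 siRNA below p65 siRNA, were thus found for 2 of 9 genes, against 4.82% of all features. This comparison shares the arrays on which the genes were chosen, so the share is not read further. The median of the 9 genes was then placed among all features of each array, as a description, since low ratios chose the genes. With RPS3 siRNA it lay at -0.77, -0.51 and -0.65 at 1, 3 and 6 h, and 1.65%, 1.82% and 2.71% of features lay below it. With p65 siRNA it lay at 0.05, -0.52 and -0.35, and 56.5%, 6.58% and 7.33% of features lay below it. The p65 siRNA array at 1 h stood apart: the median lay above most features and 4 of 9 genes were below 0, where the other 5 arrays had 8 or 9.

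The spread of all ratios differed between arrays, which bears on any comparison of sizes. Over all probes the SD was 0.26 for RPS3 siRNA at 3 h and 0.29 for p65 siRNA at 1 h, and on the other 4 arrays it was 0.37 to 0.51. ID numbers in the labels put these 2 arrays in one consecutive series and the other 4 in a second. Over all probes, the ratios correlated most in 3 pairs of arrays, each of both siRNAs and within 1 series: the 6 h arrays of both siRNAs (Pearson r = 0.69), the RPS3 siRNA array at 1 h with the p65 siRNA array at 3 h (0.47), and the 2 arrays of the first series (0.46). The other 12 pairs lay between -0.22 and 0.30. The parts of the time, the ID series and the arrays' spread in the values of the 9 genes cannot be told apart.

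The siRNAs were next set against each other at each time, as RPS3 siRNA minus p65 siRNA. At 1 h the RPS3 siRNA array was of the second ID series and the p65 siRNA array of the first. At 3 h this was reversed, and only the 6 h arrays shared a series. Time and ID series therefore cannot be told apart in how these differences change from 1 to 3 h. At 1 h all 9 differences were below 0, from -0.88 for KIF11 to -0.41 for ASPM (median -0.67), and at 6 h all 9 again, from -0.56 for DEPDC1 to -0.17 for ASPM (median -0.39). At 3 h the median was -0.01: 5 of 9 genes lay below 0, CENPA (-0.42) and KIF14 (-0.25) the furthest, and HMMR lay at 0.36. Below 0 at all 3 times were 5 of 9 genes (CENPE, CENPF, CENPA, KIF11 and KIF14), against 15.9% of all features. This share too uses arrays on which the genes were chosen and is not read further.

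**Figure D3:**
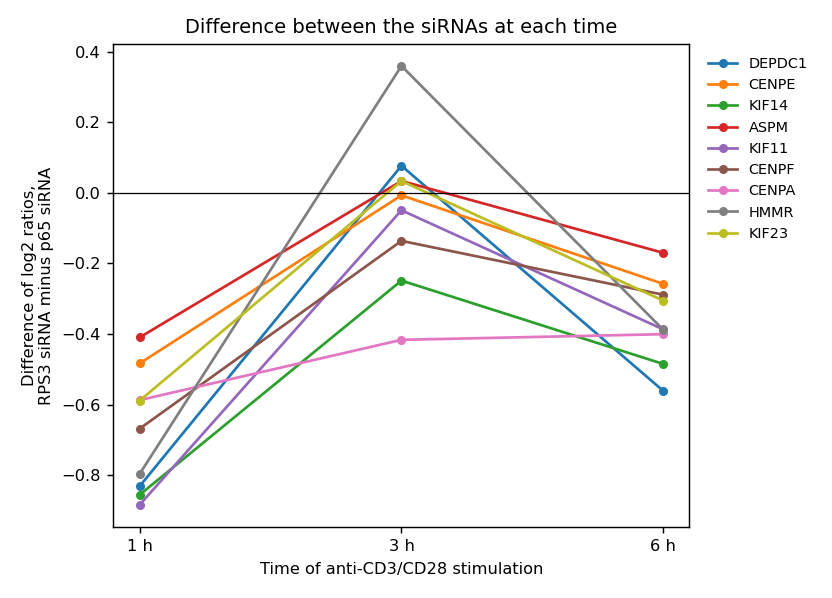
Difference of the log2 ratios, RPS3 siRNA minus p65 siRNA (y axis), of each of the 9 genes at 1, 3 and 6 h of stimulation (x axis, equally spaced); each point is 1 array minus 1 array. All genes lie below 0 at 1 and 6 h, and at 3 h they spread from -0.42 for CENPA to 0.36 for HMMR. The 2 arrays of a point are from different ID series at 1 h and, in reverse order, at 3 h.

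The small differences at 3 h depended on the scaling of the arrays. With quantile normalization, which gives all arrays the same spread, the 3 h median was -0.35 and 8 of 9 genes lay below 0, with HMMR at 0.15. At 1 h and 6 h the medians were then -0.65 and -0.28. Averaged over the 3 times with the deposited scaling, the difference ran from -0.53 ± 0.31 for KIF14 to -0.18 ± 0.22 for ASPM, with a median of -0.36. With 1 array left out all 9 stayed below 0, but the smaller ones moved by over 1.5 times: ASPM lay at -0.05 without the p65 siRNA 6 h array, CENPE at -0.13 without the same array, and HMMR (-0.11) and KIF23 (-0.12) were smallest without the p65 siRNA 1 h array. KIF11 lay at -0.27 without that array. Larger without the p65 siRNA 3 h array were HMMR (-0.51), CENPE (-0.38) and ASPM (-0.33). CENPA had the steadiest one, -0.47 ± 0.10, and HMMR the most variable, -0.27 ± 0.59. Within the first ID series (RPS3 siRNA at 3 h minus p65 siRNA at 1 h) all 9 genes were below 0, from -0.57 for KIF14 to -0.29 for CENPE. Within the second (1 and 6 h minus 3 and 6 h) all 9 were too, from -0.52 for CENPA to -0.12 for ASPM. In both the times of the siRNAs differed.

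The change of the ratio with time was not used to choose the genes and was tested. The slope per hour, with both siRNAs in the fit, was above 0 for ASPM (0.08 ± 0.04, SE), CENPE (0.07 ± 0.04), CENPF (0.05 ± 0.04) and HMMR (0.01 ± 0.06). It was below 0 for KIF23 (-0.08 ± 0.04), KIF11 (-0.07 ± 0.04), KIF14 (-0.07 ± 0.04), CENPA (-0.06 ± 0.04) and DEPDC1 (-0.02 ± 0.05). By limma 0 of 7267 features (0%) had a slope that passed, with 0.0866 as the lowest adjusted p, and so 0 of 9 genes, whose adjusted p ran from 0.256 for KIF23 to 0.934 for HMMR. Unadjusted, 23.4% of features and 0 of 9 genes had a p under 0.05. The difference of the slopes between the siRNAs lay between 0.03 and 0.08 per hour for the 9 genes. It too passed for 0 of 7267 features (0%) and 0 of 9 genes by limma (adjusted p above 0.99), and 1.76% of features and 0 of 9 genes had an unadjusted p under 0.05.

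Probes of a gene were then examined singly. Of the 39 probes, 37 had a value on all 6 arrays; 1 ASPM probe was blank on the p65 siRNA array at 6 h, and 1 DEPDC1 probe on the p65 siRNA array at 1 h and the RPS3 siRNA array at 3 h. All 37 had an RPS3 siRNA mean below 0, from -1.12 to -0.27, and 35 a p65 siRNA mean below 0, from -1.46 to 0.06. The difference of the siRNAs was below 0 for 35 of 37. Below 0 on all 3 RPS3 siRNA arrays were 34 of 37 probes, against 16.5% of the 10721 probes with 6 values, and on all 3 p65 siRNA arrays 19 of 37, against 10.2%. Since low ratios on these arrays chose the genes, these shares are a description and are not read further. Probes of a gene share a transcript and are not replicates.

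Probes of CENPF and KIF23 ran alike. The 7 CENPF probes differed between the siRNAs by -0.42 to -0.32, and the 3 KIF23 probes by -0.38 to -0.22. CENPF probes were all higher at 6 h than earlier, by 0.06 to 0.52, and the probes of KIF14, KIF23, CENPA and KIF11 were all lower at 6 h, by -0.49 to -0.16.

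CENPE and ASPM, the genes with the lowest p65 siRNA means, had probes that disagreed. A single CENPE probe gave -1.86, -1.93 and 0.58 with RPS3 siRNA, against -2.60, -1.70 and -0.06 with p65 siRNA. It was the lowest of the CENPE probes at 1 and 3 h with both siRNAs and the highest at 6 h. The other 5 CENPE probes read -0.98 to -0.58 with RPS3 siRNA at 1 h and -0.30 to 0.03 with p65 siRNA at 1 h. Of the ASPM probes 3 had a like shape, with -1.71, -1.26 and -1.05 on the p65 siRNA array at 1 h and -0.35 to 0.13 at 6 h. The shape was graded. Another ASPM probe, not below -1 on that 1 h array, read -1.22, -0.99 and -0.16 with RPS3 siRNA. With p65 siRNA it read -0.75, -0.51 and -0.23. From the mean of the 1 and 3 h arrays to that of the 6 h arrays, ASPM probes moved by -0.41 to 1.70, 7 upward and 4 downward, and CENPE probes by -0.23 to 2.28, 2 upward and 4 downward.

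The 4 probes below -1 on the p65 siRNA array at 1 h, 1 of CENPE and 3 of ASPM, were chosen after their values were seen. Without them CENPE averaged -0.80 with RPS3 siRNA and -0.42 with p65 siRNA, and ASPM -0.66 and -0.40. The differences of the siRNAs became -0.38 for CENPE and -0.26 for ASPM, against -0.25 and -0.18 with all probes, a move of about 1.5 times for CENPE. The 2 complete DEPDC1 probes also differed: the first read -1.72 and the second -0.21 with p65 siRNA at 3 h, and their siRNA differences were -0.01 and -0.70. The platform gave 43 probes of 10721 (0.401%) below -1 on the p65 siRNA array at 1 h. With a symbol were 31 of them, 4 from the 9 genes, 5 from TNFAIP3 and 3 from NFKBIA, both NF-kB inhibitors. The rest came from other genes with 1 such probe each, of which CLTC (-1.94) and CDK6 (-1.83) were the lowest. Of the probes with 6 values, these were 1 of 4 for CLTC and 1 of 4 for CDK6. For TNFAIP3 they were 5 of 6 and for NFKBIA 3 of 5. At 6 h the CLTC probe read 0.04 with RPS3 siRNA and 0.14 with p65 siRNA, and the CDK6 probe 0.53 and 0.56. A link of these probes to NF-kB was not tested.

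**Figure D4:**
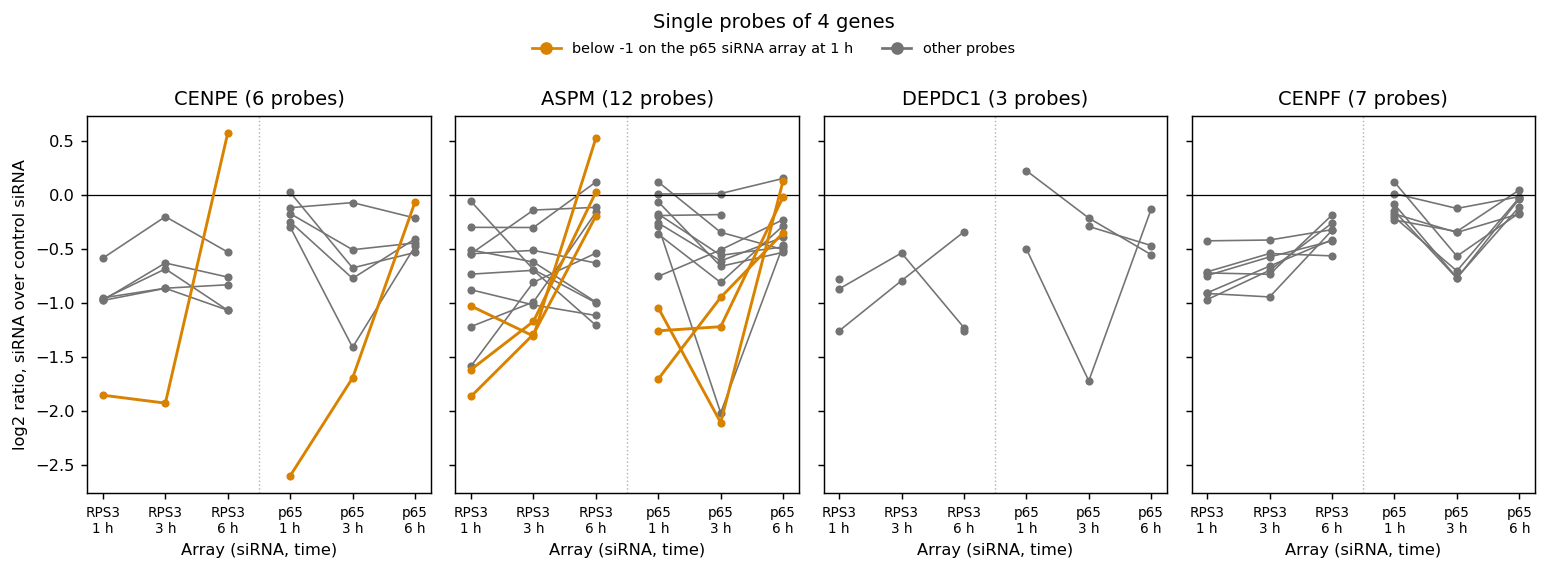
log2 ratios of single probes (y axis) of CENPE, ASPM, DEPDC1 and CENPF on the RPS3 siRNA arrays and the p65 siRNA arrays by time (x axis); each line is a probe, broken between the siRNAs and at blanks. The 4 orange probes, 1 of CENPE and 3 of ASPM, lie below -1 on the p65 siRNA array at 1 h, apart from the other probes of their gene there, and between -0.35 and 0.58 on the 6 h arrays, where other ASPM probes overlap them; the 7 CENPF probes run together.

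Lists of other genes of the mitotic apparatus, drawn up by function with earlier results of these arrays known, were counted without the 9 genes. For reference, 47.1% of all tested features had an RPS3 siRNA mean below 0 and 45.3% a p65 siRNA mean below 0, with medians of 0.01 and 0.02. No list gene passed, since limma called none of the 7267 features, RPS3 with its own siRNA included. The 2 other mitotic kinesins tested were both low with RPS3 siRNA. KIF20B (MPP1), a kinesin of cytokinesis, averaged -0.70 ± 0.25 with RPS3 siRNA and -0.31 ± 0.34 with p65 siRNA, and KIFC1, a minus-end motor that bundles spindle poles, -0.29 ± 0.04 and -0.16 ± 0.18. Both promoters held TTTGAA and CCAAT. Of 3 genes on a list of interphase and transport kinesins, KIF21B (-0.24 ± 0.29), KIF2A (-0.03 ± 0.36), a microtubule depolymerase that also acts at spindle poles, and the light chain KLC1 (0.28 ± 0.40) had RPS3 siRNA means on both sides of 0, and none was below 0 on all 3 RPS3 siRNA arrays.

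Centromere and kinetochore genes had 13 of 17 RPS3 siRNA means below 0, with a median of -0.19, and 10 of 17 p65 siRNA means, with a median of -0.09. SGO2, shugoshin 2, which guards centromeric cohesion, was the lowest at -0.61 ± 0.15 with RPS3 siRNA and -0.36 ± 0.29 with p65 siRNA. CENPW of the inner kinetochore averaged -0.42 ± 0.30 and 0.06 ± 0.33. The highest were PAFAH1B1 (LIS1) and NDE1, both dynein regulators that also act outside mitosis, at 0.23 ± 0.28 and 0.20 ± 0.26 with RPS3 siRNA.

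The spindle checkpoint list had 8 of 9 RPS3 siRNA means below 0 and a median of -0.20, against 1 of 9 and a median of 0.03 with p65 siRNA. The kinase BUB1 averaged -0.40 ± 0.20 with RPS3 siRNA and 0.05 ± 0.15 with p65 siRNA, and MAD2L1, the MAD2 checkpoint protein, -0.35 ± 0.26 and 0.03 ± 0.28. At the other end TRIP13 averaged -0.02 ± 0.22 and MAD1L1 0.11 ± 0.42 with RPS3 siRNA. Spindle assembly and spindle pole genes had 12 of 15 RPS3 siRNA means below 0 (median -0.21) and 10 of 15 p65 siRNA means (median -0.08). BIRC5 (survivin, of the chromosomal passenger complex) averaged -0.42 ± 0.60 and TPX2, an activator of Aurora A, -0.39 ± 0.23 with RPS3 siRNA. HAUS2 (0.21 ± 0.24) and RCC1 (0.09 ± 0.14) were the highest. Unlike the 9 genes, all below 0 on both 6 h arrays, BIRC5 was above 0 on both 6 h arrays, at 0.26 with RPS3 siRNA and 0.56 with p65 siRNA.

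Condensin, cohesin and chromosome genes had 9 of 11 RPS3 siRNA means below 0 and a median of -0.22, with 8 of 11 and -0.08 for p65 siRNA. TOP2A, the topoisomerase that untangles sister chromatids, averaged -0.38 ± 0.29 and the cohesin subunit RAD21 -0.35 ± 0.15 with RPS3 siRNA, while SMC1A (0.31 ± 0.45) and SMC2 (0.19 ± 0.29) were above 0. Tubulin and centrosome genes had 9 of 14 means below 0 with either siRNA, and medians of -0.06 with RPS3 siRNA and -0.13 with p65 siRNA. PLK4, the kinase of centriole duplication, averaged -0.34 ± 0.27 with RPS3 siRNA, TUBA1A -0.22 ± 0.25, TUBG1 0.16 ± 0.52 and CEP152 0.20 ± 0.09.

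S phase genes had 17 of 29 RPS3 siRNA means below 0 (median -0.06) and 4 of 29 p65 siRNA means below 0 (median 0.07). The flap endonuclease FEN1 averaged -0.46 ± 0.29 with RPS3 siRNA and thymidine kinase TK1 -0.42 ± 0.41, and MCM7 (0.29 ± 0.55) and cyclin E1, CCNE1 (0.21 ± 0.39), were the highest. A list of regulators of G2 and M phase promoters, with the inhibitor gene CDKN1A counted in, had 9 of 15 RPS3 siRNA means below 0. Of the p65 siRNA means 8 of 15 were below 0, and the medians were -0.06 and -0.01. FOXM1, which drives many of these genes, read -0.76, -0.42 and 0.03 with RPS3 siRNA, against -0.09, -0.37 and 0.15 with p65 siRNA. It was thus lowest at 1 h with RPS3 siRNA and not below 0 on either 6 h array. CDKN1A, the gene of the inhibitor p21, read -0.70, -0.48 and 0.07 with RPS3 siRNA, against -0.54, -0.25 and 0.45 with p65 siRNA. Its means were -0.37 ± 0.40 with RPS3 siRNA and -0.11 ± 0.51 with p65 siRNA. Its part in the values of the 9 genes was not tested. RBBP4 averaged 0.21 ± 0.38 and E2F5 0.23 ± 0.19 with RPS3 siRNA. Single RPS3 siRNA arrays moved some of these medians by over 1.5 times. Without the 1 h array the checkpoint median was -0.09, the spindle assembly median -0.12 and the S phase and regulator medians both -0.03. Without the 3 h array the centromere median was -0.32 and the tubulin median -0.04, and without the 6 h array the tubulin median was -0.15 and the S phase median -0.14. The medians of the lists thus overlapped between these settings, and differences between lists were not tested. Among genes with a RefSeq entry, TTTGAA lay in the promoters of 1 of 24 S phase and 5 of 11 spindle assembly genes. It lay in 5 of 10 condensin, 3 of 7 checkpoint, 5 of 14 centromere, 3 of 12 tubulin, 2 of 12 regulator and 0 of 2 interphase kinesin genes, against 11.5% of tested genes. CCAAT lay in 14 of 24 S phase and 6 of 11 spindle assembly genes, against 37.4%. A relation of these matches to the ratios was not tested.

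**Figure D5:**
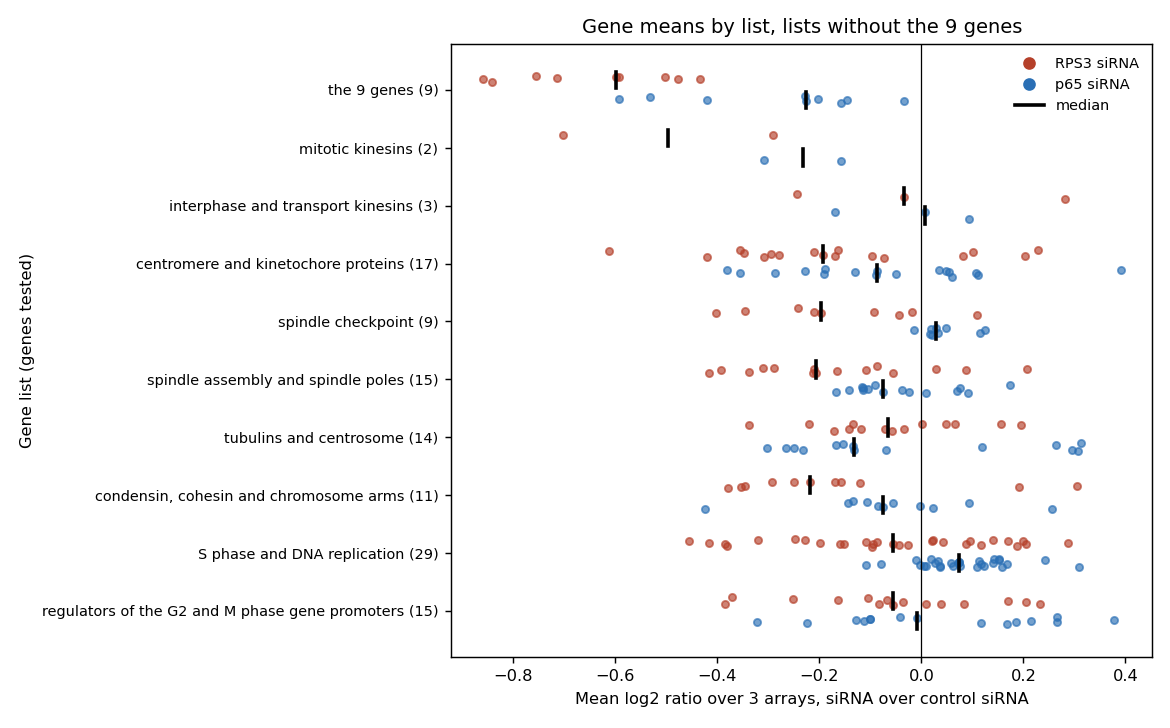
Mean log2 ratio over 3 arrays (x axis) of each tested gene, by list (y axis, with the number of genes), for RPS3 siRNA (upper, red) and p65 siRNA (lower, blue); black bars are list medians, and the lists leave out the 9 genes shown in the top row. The RPS3 siRNA medians of the centromere, checkpoint, spindle assembly and condensin lists lie between -0.22 and -0.19, and those of the tubulin, S phase and regulator lists at -0.06; with 1 array left out the checkpoint median reached -0.09 and the tubulin median -0.15.

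The genes nearest to the mean profile of the 9 genes were found by Euclidean distance of log2 ratios over the 6 arrays, among all other named genes. SGO2 was the nearest, at a distance of 0.24 (r = 0.91 over 6 arrays), closer than any of the 9 genes, which lay 0.40 (CENPF) to 0.77 (CENPE) from their own mean. Its 4 probes averaged -0.79, -0.54 and -0.51 with RPS3 siRNA, against -0.06, -0.65 and -0.36 with p65 siRNA. At 3 h SGO2 was thus lower with p65 siRNA, as were KIF23, ASPM, HMMR and DEPDC1. The mean of the 9 genes was not, at -0.52 with RPS3 siRNA and -0.48 with p65 siRNA. Next came the chromatin protein gene HMGB1 (0.38), POLQ (0.39), which encodes DNA polymerase theta, NCOA7 (0.39) and the MAP kinase phosphatase gene DUSP5 (0.40). BCL3 (0.41), an IkB-like protein, CDCA2 (0.42), a phosphatase subunit of mitotic chromosomes, the splicing factor gene SFPQ (0.48), ENPP1 (0.49) and SAMSN1 (0.49) followed. Each of these 10 genes had a mean below 0 with both siRNAs, which largely follows from being picked for closeness to a low profile. For single genes, the nearest was SGO2 for CENPF (distance 0.37) and DEPDC1 (0.50), RAD21 for KIF23 (0.18) and USP6NL for CENPA (0.25). It was COL15A1 for KIF11 (0.30) and KIF14 (0.34), SLC38A2 for HMMR (0.37), AP1G1 for ASPM (0.49) and DNAJC3 for CENPE (0.63). COL15A1 and AP1G1 had 1 probe each, and signal over background is unknown. The correlations rest on 6 arrays that share their channels' processing and are given as a description.

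As a check of the labels, the RPS3 probe averaged -2.16 ± 0.62 on the RPS3 siRNA arrays and 0.41 ± 0.61 on the p65 siRNA arrays. RELA averaged -0.54 ± 0.15 and -0.49 ± 0.09, so that p65 siRNA gave no lower RELA ratio than RPS3 siRNA. Levels were not measured by these ratios, so T-cell identity could not be checked by level. Of the T-cell markers 13 of 14 were tested, with median ratios of 0.18 with RPS3 siRNA and -0.02 with p65 siRNA. Markers of B cells, myeloid cells, red cells and platelets, epithelium, and fibroblasts and endothelium had list medians of -0.27 to 0.14 with RPS3 siRNA and -0.15 to 0.17 with p65 siRNA. Their part in the values of the 9 genes was not tested.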

How the data were processed

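Ratios of Cy5-labelled siRNA RNA over Cy3-labelled control siRNA RNA were read from 6 spotted arrays, 3 per siRNA. The deposited values are log ratios per probe, read here as log2: the log base, direction, background correction and normalization are not given in the sources used here, and the authors' column medians lay between -0.02 and 0.01. Blank cells were 5.40% to 15.1% of an array. Channel intensities were not used, so signal over background is unknown. Gene names came from the platform annotation.

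The median of an array was set to 0 and the values of a symbol's probes averaged. Blanks left 7267 features complete over the 6 arrays (3932 genes and 3335 probes without a single symbol). The fit used limma 3.58.1 under R 4.3.3 (lmFit, eBayes), both siRNAs together, with Benjamini-Hochberg adjustment over all features and a threshold of 0.05; the fit was tested on simulated data. Control RNA of the same time may be shared between siRNAs; the labels do not say.

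The 9 genes and the lists were chosen with earlier results of these data known. Named beside the 9 genes were the 2 lowest and 2 highest RPS3 siRNA means of each list, the 10 nearest genes and the siRNA targets. TNFAIP3, NFKBIA, CLTC and CDK6 were named after their values were seen. Promoters came from the RefSeq table, 1 per symbol. Alternatives changed centring, normalization, probes, arrays, time and ID series.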

Additional observations from a re-analysis of the deposited data

How the results depend on the processing

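The medians over the 9 genes (-0.60 with RPS3 siRNA, -0.23 with p65 siRNA, -0.36 for RPS3 siRNA minus p65 siRNA) kept their sign in 47 of 47 alternatives other than turning the sign, and 46 stayed within 1 SD of the arrays. Of these 47, the reading as natural logs and the time point as a replicate block cannot change a sign. Leaving out 1 array gave medians of -0.67 to -0.55, -0.37 to -0.11 and -0.48 to -0.27. With the sign turned the medians are 0.60, 0.23 and 0.36; the RPS3 probe, 4.46-fold lower with RPS3 siRNA as read here, would then be higher by that fold with its own siRNA. Read as natural logs, the RPS3 siRNA median is -0.86 on the log2 scale. Values of single genes kept their sign in 311 of 315 alternatives; the exceptions were p65 siRNA means, HMMR without the 3 h array (0.03) and CENPA without the 6 h array (0.09), without both 6 h arrays (0.09) and with ID series as a covariate (0.0028). List medians kept their sign in 115 of 126 alternatives; those that did not were within 0.09 of 0 with all arrays, and only the interphase and transport kinesins with RPS3 siRNA (0.08) and the promoter regulators with p65 siRNA (0.03) turned with quantile normalization.

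With the time point as a replicate block the medians stayed at -0.60, -0.23 and -0.36, since the design is balanced, and limma called 3, 0 and 2 features lower, with 0 of the 9 genes among them. Each probe alone gave 7, 0 and 0 lower calls and quantile normalization 2, 0 and 1, again with 0 of the 9 genes. For the slope per hour, 0 features passed with all arrays and 0 to 607 with 1 array left out (607 without the p65 siRNA 1 h array and 273 without the 3 h array), 746 with 6 h against earlier arrays and 1 with quantile normalization; for the difference of slopes, 0 to 93 with 1 array left out (93 without the p65 siRNA 6 h array, and 2 without the 1 h or 3 h array). In all of these fits 0 of the 9 genes passed; the cause was not tested.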
